A study of Mus musculus with 2 samples.

Results

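Keratin-associated proteins are small proteins that fill the space between keratin filaments in the hair shaft, and their transcripts were examined in the skin of Pla2g2f-transgenic mice. The genes were taken from every non-control array probe whose printed or current gene name begins with Krtap, which gave 47 probes for 41 genes, of 41167 probes under 27594 gene names in all. By subfamily number, 15 genes belong to the high glycine-tyrosine class (Krtap6, Krtap7, Krtap8 and Krtap19 to Krtap22) and 26 to all other subfamilies. Skin RNA of Pla2g2f-Tg/+ mice and of their littermate controls, all C57BL/6 and 25 days old, had been pooled from 4 mice for each genotype. Both pools were hybridised together to each of 2 arrays, with the transgenic pool in Cy5 on array 1 and in Cy3 on array 2. Nothing in the labels shows that fresh pools were made for the second hybridisation. The arrays were therefore counted as 1 replicate, their difference is not taken as a spread between mice, and no p-value is given. The labels name neither the promoter that drives the transgene nor the stage of the hair cycle. A probe for Pla2g2f, a secreted phospholipase A2, had log2 transgenic over control ratios of 0.54 on array 1 and 0.34 on array 2. Both ratios were below the 2-fold size used here to call a gene. On a scale set by the spike-in probes they were 0.08 and -0.12, so no direction is given for it.

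A growing hair is made by matrix cells at the base of the follicle. As these cells move up into the cortex and cuticle of the shaft they switch on hair keratins and then keratin-associated proteins. Cysteine-rich members, divided into high-sulphur and ultra-high-sulphur subfamilies, crosslink the filaments through disulphide bonds, while another class is rich in glycine and tyrosine. The genes are short and lie in clusters, and neighbours resemble each other in sequence.

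The repeats behind the class names can be read in the 60-base probes. Those shown here come from the repeats of genes whose values the results turn on, with coordinates of the array design on mouse build mm8. The interval given there for Krtap6-1 is longer than the 60 bases of its probe. In the high glycine-tyrosine probes the capitals mark GGCTATGG, which in frame holds a glycine codon followed by a tyrosine codon.
Krtap6-1, chr16:88920722-88920793, plus strand: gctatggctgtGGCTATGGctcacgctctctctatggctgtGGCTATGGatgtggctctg
Krtap6-3, chr16:88973023-88973082, plus strand: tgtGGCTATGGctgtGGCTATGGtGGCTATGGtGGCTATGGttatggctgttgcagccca
Krtap21-1, chr16:89292526-89292585, minus strand: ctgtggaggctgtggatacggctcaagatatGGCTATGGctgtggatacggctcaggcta

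In the cysteine-rich probes the capitals mark CTGCTG, which holds the cysteine codon TGC. Krtap4-6 is shown because it was the 1 measured gene under a Krtap name that was not lower.
Krtap5-1, chr7:142105895-142105954, minus strand: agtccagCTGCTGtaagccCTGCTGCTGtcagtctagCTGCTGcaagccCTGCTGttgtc
Krtap5-4, chr7:142113213-142113272, plus strand: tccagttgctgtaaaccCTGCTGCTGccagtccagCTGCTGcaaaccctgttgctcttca
Krtap4-6, chr11:99481772-99481831, minus strand: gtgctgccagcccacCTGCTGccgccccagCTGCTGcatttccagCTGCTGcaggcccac

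Searched on both strands, GGCTATGG was present in 5 of 17 high glycine-tyrosine probes and in 1 of 30 probes of the other subfamilies, beside 0.160% of all 41167 probes. CTGCTG was present in 0 of 17 high glycine-tyrosine probes and in 6 of 30 of the others, beside 3.95% of all probes. The probe with GGCTATGG outside its class was assigned to Krtap16-3. On the array 9 probes are printed with Krtap16 names, and 7 of them belong to genes now numbered in the high glycine-tyrosine class. In the gene order of assembly GRCm38.p6, the keratin-associated neighbours of Krtap16-3 are Krtap19-9b and Krtap22-2, both of that class.

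Keratin-associated transcripts were lower in transgenic skin in both classes. On array 1 the scanner software marks, for each channel, whether a spot is well above background. A gene was taken as measured if its brightest probe was so marked for either pool, and as lower if its ratio was at least 2-fold lower on each array. Of the 41 genes, 32 were measured. All 11 measured high glycine-tyrosine genes and 20 of the 21 measured others were lower, beside 1.68% of the 10456 genes measured on the array. Of the members 0 were higher, beside 3.72% of all genes measured. A member dim in the transgenic pool entered through the control pool alone, so these counts are no measure of the whole family. A further pair of probes, which only their descriptions tie to Krtap2-4, fall outside the naming rule, were bright for both pools and did not pass, at -0.55 and -0.75 and at -0.40 and -0.23. Of the 176 genes lower on the array, 31 (17.6%) were keratin-associated, as were 22 of the 50 genes with the lowest mean log2 ratios. Beside this, the members were 32 of the 10456 genes measured, and 23 of the 32 were dim in the transgenic pool. Bulk RNA cannot tell fewer hair-forming cells from less RNA per cell.

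**Figure D1:**
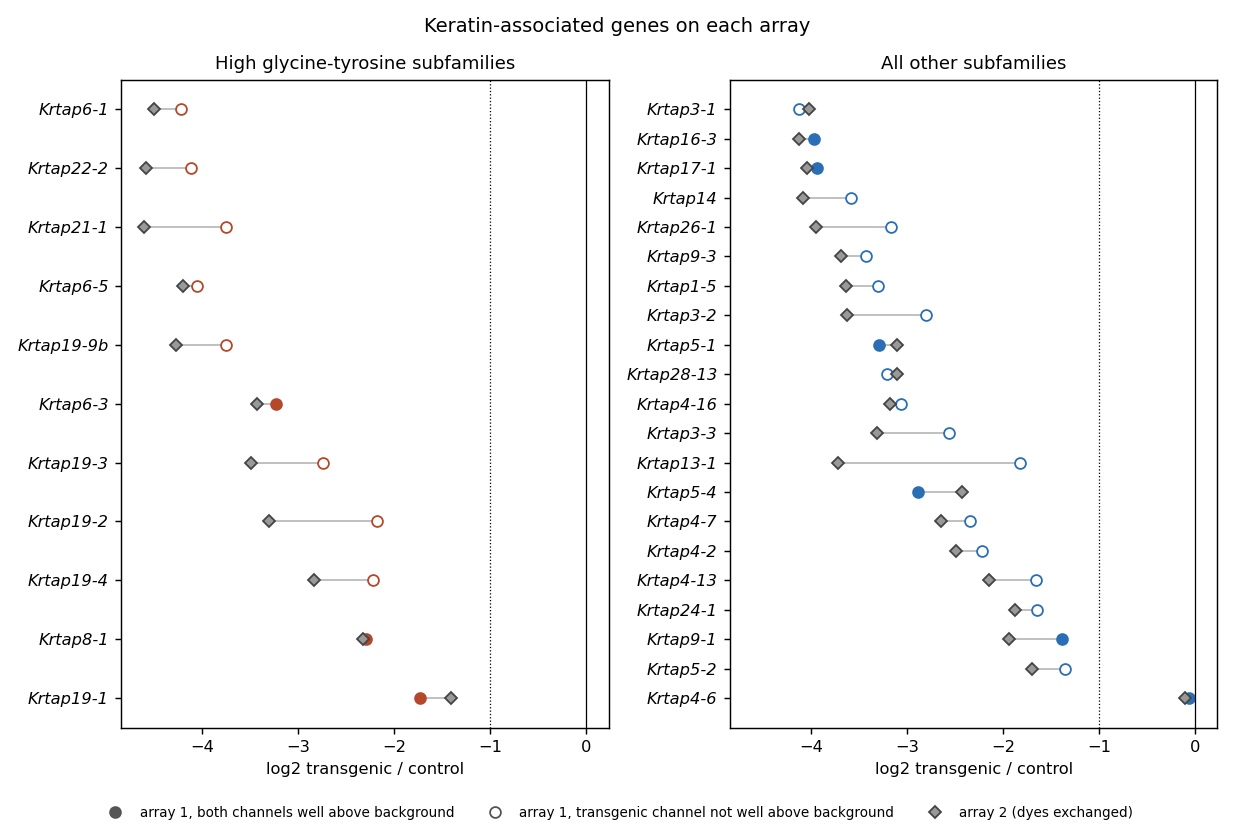
Log2 transgenic over control ratio of the 32 measured keratin-associated genes on array 1 (circles, open where the transgenic channel was not well above background) and array 2 (diamonds), by class, with a dotted line at 2-fold lower. All genes but Krtap4-6 lie beyond that line on each array.

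Over the 11 measured high glycine-tyrosine genes the median of the mean log2 ratio was -3.33, or 10.04-fold lower, with array medians of -3.23 and -3.49. Over the 21 others it was -3.12, and -2.71 with dim transgenic signals raised to the lowest signal well above background, with unraised array medians of -2.88 and -3.17. Over all genes measured the median was -0.0079. The class medians differed by -0.21 in the mean, by -0.35 on array 1 and by -0.31 on array 2, and 19 of the 21 other genes lay within the range of the high glycine-tyrosine genes. With only probes marked as well above background for both pools, the sign turned, to 0.35, over 3 genes against 7. Then 8 of 10 members were lower, beside 0.936% of all genes so measured. With no filter 34 of 41 members were lower, beside 0.692% of all genes. With the ratios centred on spike-in probes, averaged over both dye orientations, 31 of 32 were lower, beside 4.37%. With normexp background correction and loess applied to array 1 in place of the deposited values, 15 of 32 were lower, 8 of the high glycine-tyrosine class and 7 of the others, beside 0.536% of all genes measured. No order of the classes can therefore be given.

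By brightest probes and the mean of the arrays the lowest high glycine-tyrosine gene was Krtap6-1. It was at -4.22 on array 1 and -4.50 on array 2, although Krtap21-1 and Krtap22-2 were lower on array 2. The array 1 signal of Krtap6-1 was 211 in the transgenic pool, against 3928 in the control pool. Krtap22-2 was at -4.11 and -4.59, with signals of 122 in transgenic and 2122 in control skin. Both had a transgenic signal not well above background, as did 8 of the 11 genes of this class. For such genes the lowest signal well above background in the transgenic channel, 190, sets a nominal bound, given below as at least. It rests on array 1 alone and is open to dye bias. It is not strict, since some spots above 190, such as that of Krtap13-1 at 358, were not marked either. Krtap22-2 was thus at least 11.2-fold lower. The signal of Krtap6-1 exceeded that floor without being marked, so its 18.7-fold is the ratio of its own signals and not a secure value.

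Krtap21-1 was at -3.75 and -4.61 and at least 8.23-fold lower, and Krtap6-5 was at -4.05 and -4.20 and at least 8.61-fold lower. Krtap19-9b, the lowest of its subfamily by brightest probes, had signals of 93.7 in transgenic and 1266 in control skin and was at least 6.66-fold lower. The probe of Krtap6-1 shares a run of 45 bases with a probe named D86419, whose probes had mean log2 ratios of -4.08 and -4.06, so the sources of these signals cannot be told apart. It was the 1 member probe of 47 that shares 20 bases or more with a probe of another name.

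In 3 genes of the class both pools gave signals well above background on array 1. Their array 1 ratios are not limited by the floor, while array 2 has ratios only and no such marks. Krtap6-3 had signals of 744 in transgenic and 6975 in control skin, with log2 ratios of -3.23 and -3.43. Krtap8-1 had 603 in transgenic and 2959 in control skin, with ratios of -2.30 and -2.32. Krtap19-1 had 1688 in transgenic and 5598 in control skin, with ratios of -1.73 and -1.41, the highest of the class by brightest probes. Its other measured probe, dim in transgenic skin, had a mean of -4.46, below that of Krtap6-1. The other measured members of Krtap19 lay between Krtap19-9b and Krtap19-1 by brightest probes. Krtap19-4 was at -2.22 and -2.83, Krtap19-2 at -2.18 and -3.31, and Krtap19-3 at -2.74 and -3.49.

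**Figure D2:**
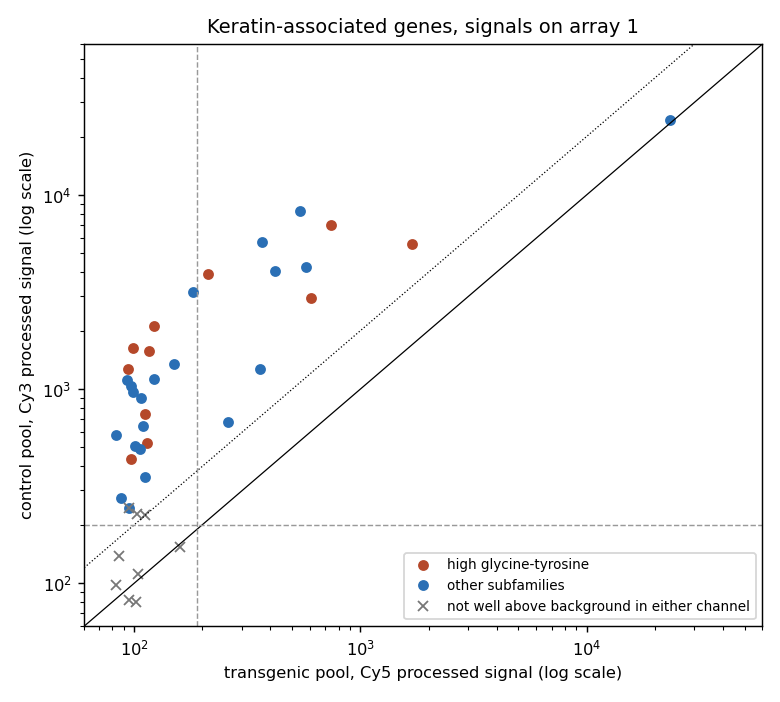
Processed signals of keratin-associated genes on array 1, transgenic pool (Cy5, horizontal log axis) against control pool (Cy3, vertical log axis), with the line of equality, a dotted line at 2-fold lower and dashed lines at the lowest signals well above background (190 in Cy5, 199 in Cy3). Most genes lie left of the vertical dashed line, and Krtap4-6 lies at the upper right near equality.

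Among the other subfamilies the lowest mean log2 ratio by brightest probes was that of Krtap3-1, a high-sulphur member, at -4.13 and -4.02, although Krtap16-3, Krtap14 and Krtap17-1 were lower on array 2. Its signals were 181 in transgenic and 3161 in control skin, at least 16.6-fold lower. Krtap16-3, which stands here by its number although neither of its probes holds CTGCTG, was at -3.96 and -4.12, with 366 in transgenic and 5710 in control skin. Krtap17-1 was at -3.93 and -4.04, with 541 in transgenic and 8261 in control skin. In Krtap16-3 and Krtap17-1 both channels were well above background, and their mean ratios were 16.5-fold and 15.9-fold lower. Krtap14 was at -3.58 and -4.08 and at least 5.85-fold lower.

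The Krtap5 genes on chromosome 7 had lower ratios in all 3 members measured. Krtap5-1 had signals of 417 in transgenic and 4079 in control skin, with log2 ratios of -3.29 and -3.10. Krtap5-4 had 575 in transgenic and 4239 in control skin, with ratios of -2.88 and -2.43. Krtap5-2 was dim, with 94.6 in transgenic and 243 in control skin, ratios of -1.36 and -1.70, and a bound of at least 1.28-fold. Of the 23 members dim in transgenic skin, 18 had a nominal bound of 2-fold or more set by the floor, and Krtap6-1 and Krtap13-1 had signals above it. With the dim signals raised to the floor, 28 of the 32 members were lower, beside 1.43% of all genes measured, and Krtap24-1, Krtap4-13 and Krtap5-2 were no longer so.

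Krtap4-6 stood apart from all other measured members. Its signals were 23315 in transgenic and 24459 in control skin, the brightest of the measured members in either pool, and its log2 ratios were -0.07 and -0.10. Its probe, shown above with its cysteine repeats, is 70% G and C, and no value here tells whether it reports the gene alone. The 4 other Krtap4 genes were lower, with mean log2 ratios of -3.12 for Krtap4-16, -2.49 for Krtap4-7, -2.36 for Krtap4-2 and -1.90 for Krtap4-13. Krtap9-1, well above background in both channels, was at -1.39 and -1.94, with 259 in transgenic and 676 in control skin.

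Split by sulphur, the 9 measured high-sulphur genes were all lower, with a median of -3.46. Of the 11 ultra-high-sulphur genes (Krtap4, Krtap5, Krtap9 and Krtap17), 10 were lower, with a median of -2.49. The ultra-high-sulphur median was higher by 0.97, by 0.83 on array 1 and by 1.22 on array 2, and 9 of its 11 genes lay above the high-sulphur median. The transgenic channel was dim in 6 of 11 ultra-high-sulphur and in 8 of 9 high-sulphur genes, so both medians rest on dim probes. With dim signals raised to the floor the medians were -2.03 over ultra-high-sulphur and -2.99 over high-sulphur genes, a difference of 0.96. Without Krtap16-3, counted as high-sulphur by its number alone, the difference was 0.85. Among genes whose brightest probe was bright for both pools it cannot be set, with 1 high-sulphur gene, Krtap16-3. With only probes bright for both pools, Krtap3-1 enters at -0.81 beside Krtap16-3 at -4.04. The ultra-high-sulphur median was then -2.65 over 5 genes, between these values. Averaging the probes of a gene gave -2.60 for Krtap3-1 and -2.61 for Krtap16-3. No order of the sulphur groups can therefore be given. Krtap28-13, placed in neither group, was at -3.21 and -3.10.

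**Figure D3:**
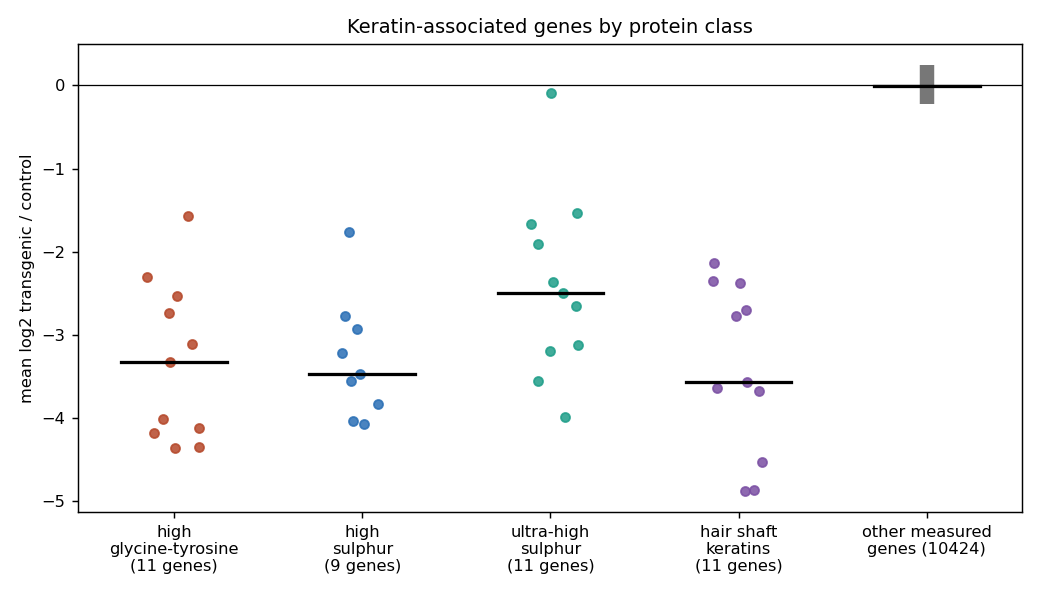
Mean log2 transgenic over control ratio of each measured gene (points) with class medians (bars), beside 11 hair shaft keratins and the other 10424 measured genes, for which the grey bar spans the quartiles. Every class median lies below -2, and Krtap4-6 is the ultra-high-sulphur point near 0.

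The arrays gave the members similar ranks, with r = 0.90 and rho = 0.87 over 32 genes that share both arrays, as a description. Array 2 gave the lower ratio in 21 of the 23 members dim in transgenic skin, by a median of 0.47, and in 6 of the 9 bright in both channels, by a median of 0.03. The largest gap was in Krtap13-1, at -1.82 on array 1 and -3.72 on array 2, with array 1 signals of 358 in transgenic and 1264 in control skin.

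Genes with several measured probes gave values that differed by over 2-fold between probes, in 4 of 4 genes. No share over all genes is given beside this count. In Krtap8-1, Krtap19-1 and Krtap3-1 it sets probes dim in transgenic skin against a probe bright for both pools. Capitals again mark GGCTATGG in the sequences that show where the probes of Krtap19-1 lie.
Krtap19-1, repeat probe, chr16:88758045-88758104, minus strand: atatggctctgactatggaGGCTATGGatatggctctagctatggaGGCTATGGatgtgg
Krtap19-1, brighter probe, chr16:88757998-88758057, minus strand: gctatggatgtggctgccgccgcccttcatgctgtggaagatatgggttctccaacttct
Their starts are 47 bases apart. The repeat probe was at -4.35 and -4.58, with signals of 170 in transgenic and 3463 in control skin, while the brighter probe, which stands for the gene, had the mean of -1.57. The lower Krtap8-1 probe was at -3.58 and -3.76, against -2.31 in the mean for the brighter one. In Krtap3-1 the 3 probes had means of -4.08, -2.91 and -0.81, and the last, with 518 in transgenic and 903 in control skin, did not pass the size rule. The second Krtap16-3 probe was at -1.16 and -1.21, lies 38521 bases from the first on mm8 and was assigned by a synonym alone, so the pair may not report 1 gene.

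**Figure D4:**
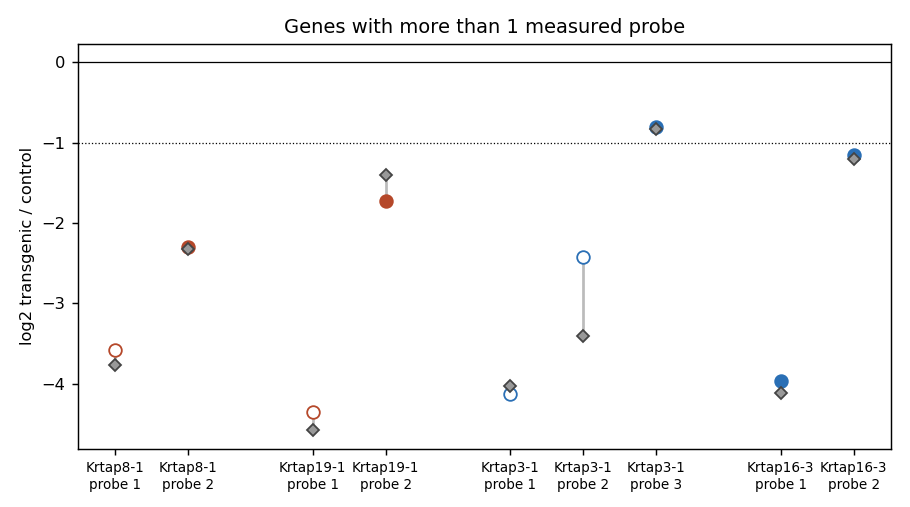
Log2 transgenic over control ratio on array 1 (circles, open where the transgenic channel was dim) and array 2 (diamonds) for every measured probe of the 4 genes with more than 1, with a dotted line at 2-fold lower. The lowest and highest probes of each gene differ by more than the arrays do, and 1 probe of Krtap3-1 lies above the dotted line.

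The start regions of these genes were read from RefSeq promoter windows of 300 bases on GRCm38.p6, which held 31 of the 32 measured members (not Krtap9-1). TATAAA, on either strand, was in 25 of 31 windows, beside 13.6% of 32851 windows of all genes. On the strand of the gene and in the 50 bases before its start it was in 20 of 31, beside 2.63%, with 5 of 11 in the high glycine-tyrosine class and 15 of 20 in the others. These class counts rest on the exact letters and the annotated start. The windows without TATAAA, of Krtap14, Krtap3-3 and Krtap19-1 to Krtap19-4, each hold TATATAA. In Krtap6-1 and Krtap21-1 TATAAA starts 69 and 61 bases before the gene, and in Krtap13-1 and Krtap4-16, of the others, 52 and 55. The 100 bases upstream of 1 gene of each class are shown, with TATAAA in capitals, which starts 31 bases before the gene in both.
Krtap19-9b, chr16:88932265-88932364, minus strand: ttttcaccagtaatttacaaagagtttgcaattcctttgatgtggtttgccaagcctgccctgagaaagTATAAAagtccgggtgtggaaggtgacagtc
Krtap17-1, chr11:99993995-99994094, minus strand: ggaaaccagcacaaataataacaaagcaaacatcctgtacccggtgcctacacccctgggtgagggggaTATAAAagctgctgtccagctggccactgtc

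CTTTGA or CTTTGT, letters of the type bound by Lef1, were in 19 of 31 windows, beside 31.2% of all. A Hoxc13-type motif (TTTAT or TTAAT, then any base, then a pair of purines) was in 17 of 31, beside 18.9%, with 3 of 11 in the high glycine-tyrosine class and 14 of 20 in the others. GACGC was in 2 of 31, beside 27.2%. The median window was 41.3% G and C in the members, against 52.7% in all windows, and base composition bears on all of these shares. A match is a description of letters and not a site.

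The hair keratins that these proteins surround were lower as well. Of 16 listed, 11 were measured and all 11 were lower, beside 1.68% of all genes measured. Their median log2 ratio was -3.57, that of Krt86, between -4.87 for Krt33b and -2.14 for Krt85. Krt31, Krt34, Krt36, Krt82 and Krt86 were dim in transgenic skin and entered through the control pool alone. Of 7 measured other shaft proteins, 6 were lower, among them S100a3 at -2.91 and Gprc5d, dim in transgenic skin, at -2.99, while Calml3 was at 0.24. Of 13 measured regulators of the hair matrix and shaft genes, 5 were lower and 8 did not pass on the arrays' own scale. Msx2 was at -2.01, Dlx3, dim in transgenic skin, at -1.95 and Prdm1 at 0.17. Hoxc13, a homeobox factor of the hair shaft, was dim in transgenic skin at -1.13 and -2.24, with a nominal bound of at least 1.28-fold.

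Markers of other compartments moved on the same arrays. Of 7 measured genes of the inner root sheath, the layer around the shaft, 6 were lower, with a median of -2.25. They ran from Krt26, dim in transgenic skin, at -3.73 to Lgals7 at 0.43. All 6 measured sebocyte markers were higher, with a median of 2.16. Of 6 melanocyte markers 4 were lower, with a median of -1.16, and 2 of 3 macrophage markers were higher, with a median of 1.23. Of basal keratinocyte markers 0 of 6 were lower and 1 was higher, Krt14 at 1.12, and of fibroblast markers 0 of 6 passed in either direction. Of 5 measured suprabasal keratinocyte markers 0 were lower and 1 was higher, Krt1 at 2.23 and 2.30. Skeletal muscle markers gave 0 of 5 lower and 1 higher, Myh1 at 1.36 and 1.29. Of 2 measured dermal papilla markers 0 passed in either direction. These calls are on the arrays' own scale, and the spike-in scale lowers each ratio by 0.46. On it the macrophage markers Adgre1 and Lyz2, at 1.08 and 1.22 on array 2, would not pass. Nor would Krt14 at 1.09, Myh1 at 1.29 and the sebocyte marker Mgst1 at 1.24 on that array. Kit, a melanocyte marker at -0.78 and -1.09, would pass as lower. So would the regulators Cux1, at -0.84 and -0.86, Trps1, at -0.81 and -1.22, and Gata3, at -0.62 and -0.67. The part of the cell types above in the ratios of the keratin-associated genes was not tested.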

How the data were processed

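Per the labels, 500 ng of total RNA per pool was labelled. The deposited intensity values of array 1 were made with Agilent Feature Extraction, version 9.5.1.1, which subtracted background and normalised the dyes, per the file headers. The deposited log10 column of array 1 equalled, within 1e-08, the logged quotient of the processed Cy5 and Cy3 signals in each of 43790 features. Array 2 has a deposited log10 column only. Its scale and sign rest on the values: the unturned columns had a correlation of -0.58, while 10 spike-in probes, which follow the dye, correlated at 1.00. The column medians were 0.0145 and -0.0243, so neither had been centred on its median.

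Values were converted to log2 transgenic over control, array 2 was turned, and the arrays were averaged. Controls and 29 flagged spots were left out. Genes were named by accession, symbol or synonym through RefSeq (GRCm38.p6), which named 31, 8 and 8 member probes, and the brightest probe stood for a gene. There was no test, since there is 1 replicate. The size rule was tested on simulated data. The number of arrays limits precision. Members and gene lists were chosen with earlier results of these data known. Values were written out for the lowest 4 and highest 3 genes per class, genes that did not pass, genes with discordant probes and genes bright in both channels, and others were chosen after their values were seen. Alternatives covered filters, single arrays, centring, normexp and loess (R 4.3.3, limma 3.58.1), probe averaging, class names and a 3-fold threshold. Other computing used Python 3.11.15, pandas 2.3.3 and numpy 2.4.6.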

Additional observations from a re-analysis of the deposited data

How the results depend on the processing

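Krtap4-6 was not lower in any alternative run, and no measured gene changed direction. The counts lower kept within 1.5 times except as follows. With probes bright for both pools on array 1, 3 high glycine-tyrosine genes, 5 others and 8 in all were lower, the medians were -2.31 and -2.65, and their difference turned to 0.35. With normexp and loess on array 1, 7 others and 15 in all were lower, the medians were -2.66 and -2.08 and the difference -0.58. With classes from the names on the array, 3 high glycine-tyrosine genes, all the measured ones that carry such a name, were lower and the difference was -0.39. With no filter the medians were -2.74 and -2.71 and the difference -0.031. On single arrays, leaving out each replicate in turn, the high glycine-tyrosine median ranged from -3.49 to -3.23, that of the others from -3.17 to -2.88 and the difference from -0.35 to -0.31. Centring each array on spike-ins gave -3.81 and -3.60. Averaging the probes of a gene gave -2.77 for the others and a difference of -0.56. Further alternatives were chosen after seeing the data: centring on the dye-balanced spike-ins gave -3.79 and -3.58, Krtap16-3 in the high glycine-tyrosine class gave -3.67 there and a difference of -0.64, dim signals raised to the floor gave -2.71 for the others and a difference of -0.62, and leaving out the Krtap6-1 probe gave a difference of -0.10. The repeats of the sulphur split were also chosen after seeing the data. The cause of these shifts was not tested. On the spike-in scale all genes shift by 0.46, and 176 genes were higher and 457 (4.37%) lower, beside 389 higher and 176 lower on the arrays' own scale. Setting classes by protein composition was not run, since no protein table was used here. No paired analysis was possible because the arrays compare the same 2 groups within each array and no test was made. Signal over background limits the ratios of the 23 members dim in transgenic skin.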

Other observations

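Besides the probes named Krtap, 5 probes mention keratin-associated proteins in their descriptions alone, and all 5 were measured. A probe described as a cDNA of keratin-associated protein 6-1 had log2 transgenic over control ratios of -2.54 on array 1 and -3.16 on array 2. A probe described as similar to keratin-associated protein 9-1 was at -1.60 and -1.73, and another, weakly similar to a human protein of the family, was at -4.08 and -4.43. These 3 were lower by the size rule. The other 2, both described as Krtap2-4 and bright in both pools, were at -0.55 and -0.75 and at -0.40 and -0.23 and did not pass. The probe named Krtap2-4 itself was not well above background in either pool.

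The 9 members not measured were Krtap19-5, Krtap20-2, Krtap6-2 and Krtap7-1 of the high glycine-tyrosine class and Krtap12-1, Krtap13, Krtap15, Krtap2-4 and Krtap31-1 of the others. Of the 56 Krtap genes in the RefSeq table, 15 had no probe assigned.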
